A study of Mus musculus with 9 samples.

Results

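The choroid plexus epithelium genes described here were *Ttr*, *Kl*, *Folr1*, *Clic6*, *Kcne2*, *Aqp1*, *Prlr* and *Enpp2*, 8 of 51912 genes in the table and of 31636 genes with a value above 0 in any library. They were chosen by name as genes known from this epithelium, not by a rule on values, though earlier results of these data were known. The RNA came from dissected midbrains of C57Bl/6 mouse embryos at E14.5, taken at 3 genotypes of the *Nkx2.9* gene with 3 libraries each. These were wild types (Nkx2.9+/+), heterozygotes (Nkx2.9LacZ/+) and homozygotes (Nkx2.9LacZ/LacZ), and no further allele or agent was named for any of them. The targeted allele carries a nuclear LacZ reporter where exon 1 of *Nkx2.9* would be, so it is a germline change present in every cell and not one limited to a tissue. Each library was made from a pooled pair of midbrains. The columns of the table carry the genotype but no replicate number, so the libraries are named by their column, with columns 1 to 3 for Nkx2.9LacZ/LacZ, 4 to 6 for Nkx2.9LacZ/+ and 7 to 9 for Nkx2.9+/+.

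The values are normalized counts, which are reads per gene divided by a factor for the depth of each library. The libraries held between 1692963 and 5942192 reads on genes, with a median of 4921748. The shallowest was the Nkx2.9+/+ library of column 7, where a single read was worth 2.59 normalized counts, against 0.702 in the deepest, column 8. *Nkx2.9* itself had 28 reads over all 9 libraries, with a normalized count of 3.69 ± 1.57 (SD, n = 3) in the libraries labelled Nkx2.9LacZ/LacZ and 0.959 ± 0.831 in those labelled Nkx2.9+/+. It was thus not lower in the libraries labelled as homozygous. The table counts whole genes and only exon 1 was replaced, so this value does not check the genotype labels. Of the midbrain and hindbrain genes read beside it, chosen here after their values were seen, *Tph2*, the serotonin synthesis gene, was at 7.71 ± 3.76 in the libraries labelled Nkx2.9LacZ/LacZ and 27.2 ± 9.12 in those labelled Nkx2.9+/+. *En1* was at 179.6 ± 19.6 and 273.9 ± 48.6 and *Pax7* at 173.1 ± 49.2 and 264.3 ± 49.4, in the same order, while *Wnt8b*, described below, was higher in the libraries labelled Nkx2.9LacZ/LacZ (20.01 ± 9.43 against 5.02 ± 3.48). Whether the labels of these genotypes are exchanged in the columns was not tested. Every genotype below is that of the column label, and an exchange of Nkx2.9LacZ/LacZ and Nkx2.9+/+ would turn each direction given between them, those of *Kl*, *Ttr* and *Clic6* included.

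The choroid plexus is a fold of secretory epithelium that projects into the brain ventricles and makes the cerebrospinal fluid. It forms in the ventricles of the forebrain and hindbrain; the midbrain aqueduct has none. Its cells secrete carrier proteins, take up folate and hormones from the blood, and move water and ions through channels in their apical membrane. *Ttr*, which encodes transthyretin, the carrier of thyroid hormone and of retinol with its binding protein, is among the most abundant transcripts of this epithelium and is the usual marker for it.

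The markers did not show the pattern of a choroid plexus. The 8 genes together had 1704 of 41253425 reads, a reads-per-million value (RPM) of 41.3, and 70.5% of those reads were from *Enpp2*. The other 7 genes together had 19 to 80 reads in a library. *Ttr* had 3 to 10 reads in a library and *Kcne2*, *Aqp1* and *Clic6* had 0 to 7. The libraries did hold midbrain transcripts: all 10 genes of a midbrain list, led by *Gata3*, *En2* and *Otx2*, were above a mean of 5, and their summed level was 1670 to 2355 normalized counts in a library. The 8 genes are therefore called by their names below and not taken as a sign of choroid plexus cells.

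Between genes, levels can be compared only per length, here as the mean normalized count per kilobase of exon over the 9 libraries. *Enpp2* was highest at 21.2, with a range over libraries of 19.998 to 23.4. *Ttr* followed at 5.84, with a range of 1.90 to 17.4 that did not reach that of *Enpp2*, and *Folr1* was next at 3.58. *Kl* at 1.42 and *Prlr* at 1.27 lay lower, and their ranges of 0.490 to 3.33 and 0.785 to 1.89 overlapped. *Aqp1* at 0.738, *Kcne2* at 0.639 and *Clic6* at 0.633 were at the bottom, each with libraries at 0, and their order among themselves was not resolved at this depth. For comparison, the median over 31539 genes above 0 was 5.02 on the same scale, so 6 of the 8 genes lay below it. For *Ttr*, *Folr1* and *Kl* the ranges overlapped one another as well.

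**Figure D1:**
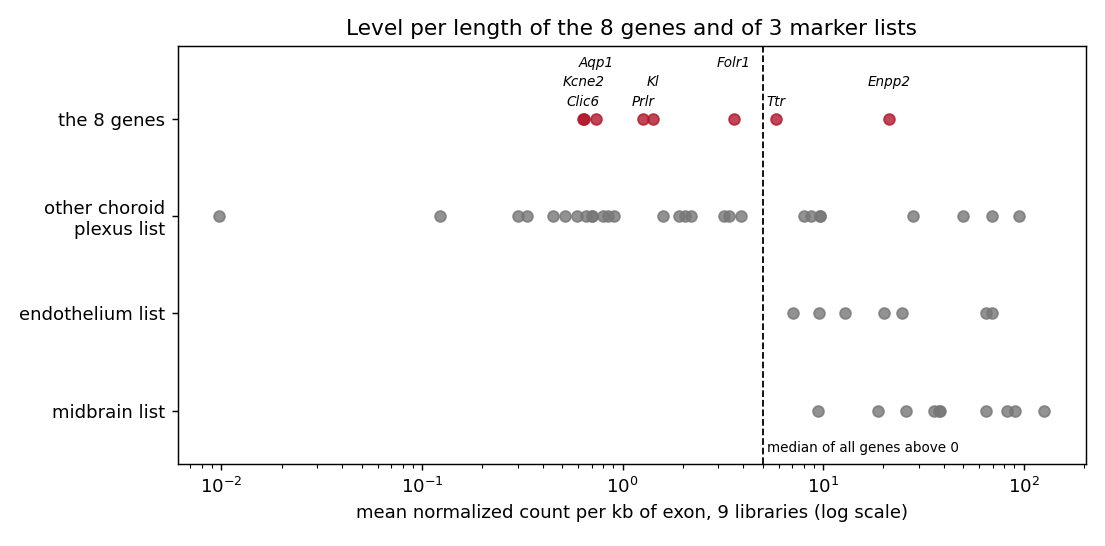
Mean normalized count per kilobase of exon over the 9 libraries (x axis, log scale) for the 8 genes (red) and for the genes of 3 marker lists (grey), 1 point per gene; the dashed line is the median of all genes above 0, at 5.02. Only *Enpp2* (21.2) and *Ttr* (5.84) lie to its right among the 8, while all genes of the endothelium and midbrain lists do.

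Other genes of the epithelium were measured beside the 8. Of 28 further genes known from the choroid plexus epithelium, 13 reached a mean normalized count of 5. The highest were *Sulf1*, which encodes an extracellular sulfatase, at 562, *Vat1l* at 379 and *Slc12a2*, the sodium, potassium and chloride cotransporter, at 308, none of which is restricted to that epithelium in the brain. Genes more restricted to it were picked here after their values were seen, and those named were low. *Tmem72* had 2 reads and the tight junction gene *Cldn2* had 4 reads in the whole series, each from a single Nkx2.9LacZ/LacZ library. *Kcnj13*, a potassium channel gene of the apical membrane, had 0 to 12 reads in a library, and the BMP and Wnt antagonist gene *Sostdc1* had 0 to 6.

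The secreted and shed proteins come first. *Enpp2* (chr15:54838901-54952892, minus strand, GRCm38) encodes autotaxin, the secreted enzyme that makes lysophosphatidic acid, and is used by several cell types besides the choroid plexus. Its normalized counts were 124, 135 and 118 in the Nkx2.9LacZ/LacZ libraries. They were 121, 126 and 117 in the Nkx2.9LacZ/+ libraries and 119, 127 and 116 in the Nkx2.9+/+ libraries. All 9 libraries thus lay within 116 to 135, and the genotypes overlapped fully. The SD over all 9 was 6.21, which was 0.536 times the SD of 11.6 that counting error alone would give.

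*Ttr* (chr18:20665280-20674321, plus strand) was read at 2.26, 6.40 and 2.58 normalized counts in the Nkx2.9LacZ/LacZ libraries, from 3, 7 and 3 reads. It was at 6.52, 4.27 and 7.34 in Nkx2.9LacZ/+, from 4, 5 and 9 reads. In Nkx2.9+/+ it was at 20.7, 4.91 and 7.36, from 8, 7 and 10 reads. A single library, the shallow Nkx2.9+/+ one of column 7, stood above the rest, with a 95% exact Poisson interval of 8.93 to 40.8 that covers counting error only. The other 8 libraries lay between 2.26 and 7.36, where the genotypes overlapped.

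*Kl* (chr5:150952607-150993817, plus strand) encodes Klotho, a membrane protein that is also shed and that serves as the coreceptor for the hormone FGF23. It was at 10.5, 4.57 and 8.59 normalized counts in Nkx2.9LacZ/LacZ, from 14, 5 and 10 reads. In Nkx2.9LacZ/+ it was at 6.52, 12.8 and 14.7, from 4, 15 and 18 reads. In Nkx2.9+/+ it was at 31.0, 14.0 and 16.2, from 12, 20 and 22 reads. All 3 Nkx2.9+/+ libraries were above all 3 Nkx2.9LacZ/LacZ libraries, with the heterozygotes overlapping both. Column 7 was again the highest library, with a counting interval of 16.0 to 54.2.

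Since *Kl* was the gene that passed an unadjusted test between genotypes, as described below, the 250 bases before its RefSeq start are shown (GRCm38.p6, chr5:150952357-150952606, plus strand), with GC boxes (GGGCGG or its reverse complement CCGCCC) in capitals.
*Kl*: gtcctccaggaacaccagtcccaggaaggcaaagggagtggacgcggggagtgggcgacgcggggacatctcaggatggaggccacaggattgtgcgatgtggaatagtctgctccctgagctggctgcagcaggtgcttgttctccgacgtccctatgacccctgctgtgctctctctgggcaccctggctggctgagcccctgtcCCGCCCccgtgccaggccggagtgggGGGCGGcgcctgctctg
This stretch was 66.8% G and C and held 2 GC boxes. The RefSeq promoter table used here held 7 windows for 4 of the 8 genes, namely *Kl*, *Aqp1*, *Kcne2* and *Prlr*, each running from 250 bases before to 50 bases after a start. On either strand, GGGCGG was in 3 of the 7, those of *Aqp1*, *Kcne2* and *Kl*, against 35.7% of all 32851 windows. TAATCC, the core letters of the binding site of Otx2, a homeodomain factor of choroid plexus and midbrain, was in 0 of 7, against 7.06% of all windows. TATAAA was in 0 of 7, against 13.6%. These are matches of letters only.

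The uptake receptors were low. *Folr1* (chr7:101858331-101870788, minus strand) encodes the folate receptor that carries folate across the epithelium. It was at 1.51, 10.98 and 14.6 normalized counts in Nkx2.9LacZ/LacZ, at 0, 7.68 and 8.16 in Nkx2.9LacZ/+ and at 18.1, 4.21 and 8.83 in Nkx2.9+/+. The SD within Nkx2.9LacZ/LacZ (6.76) and within Nkx2.9+/+ (7.07) was above that over all 9 libraries (5.87), and within Nkx2.9LacZ/+ it was 4.58. The 0 was in column 4, the second-shallowest library, where a limit of 3 reads for a count of 0 is a normalized count of 4.89 (the exact Poisson bound that is plotted is 6.01). *Prlr* (chr15:10177238-10349180, plus strand), the prolactin receptor gene, was at 12.04, 15.5 and 27.5 in Nkx2.9LacZ/LacZ, at 14.7, 29.0 and 22.0 in Nkx2.9LacZ/+ and at 15.5, 19.6 and 19.1 in Nkx2.9+/+. No genotype stood apart, and the SD over 9 libraries was 1.26 times that of counting error, against 1.998 for *Ttr*, 2.03 for *Kl* and 1.95 for *Folr1*.

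The channel genes were close to the limit of detection. *Aqp1* (chr6:55336432-55348555, plus strand), the water channel of the apical membrane, had 6, 0 and 0 reads in Nkx2.9LacZ/LacZ, 0, 7 and 4 in Nkx2.9LacZ/+ and 0, 0 and 5 in Nkx2.9+/+. It was at 0 in 5 of 9 libraries, where the same limit of 3 reads is 2.11 to 7.76 normalized counts (exact Poisson bounds 2.59 to 9.54), and every genotype had a library with reads. *Kcne2* (chr16:92292389-92298129, plus strand), a potassium channel subunit gene, had 3, 1 and 0 reads in Nkx2.9LacZ/LacZ, 2, 0 and 2 in Nkx2.9LacZ/+ and 0, 3 and 0 in Nkx2.9+/+. *Clic6* (chr16:92485736-92541243, plus strand), of the chloride intracellular channel family, had 2, 1 and 2 reads in Nkx2.9LacZ/LacZ, 0, 2 and 5 in Nkx2.9LacZ/+ and 2, 5 and 5 in Nkx2.9+/+. For *Clic6* the normalized counts were 0.915 to 1.72 in Nkx2.9LacZ/LacZ and 3.51 to 5.17 in Nkx2.9+/+, which did not overlap, though the top value, in column 7, rested on 2 reads. None of the 8 genes shares exons with another gene that had reads. *Prlr* overlaps *Gm21973* and *Enpp2* overlaps *Gm26684*, both with 0 reads.

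**Figure D2:**
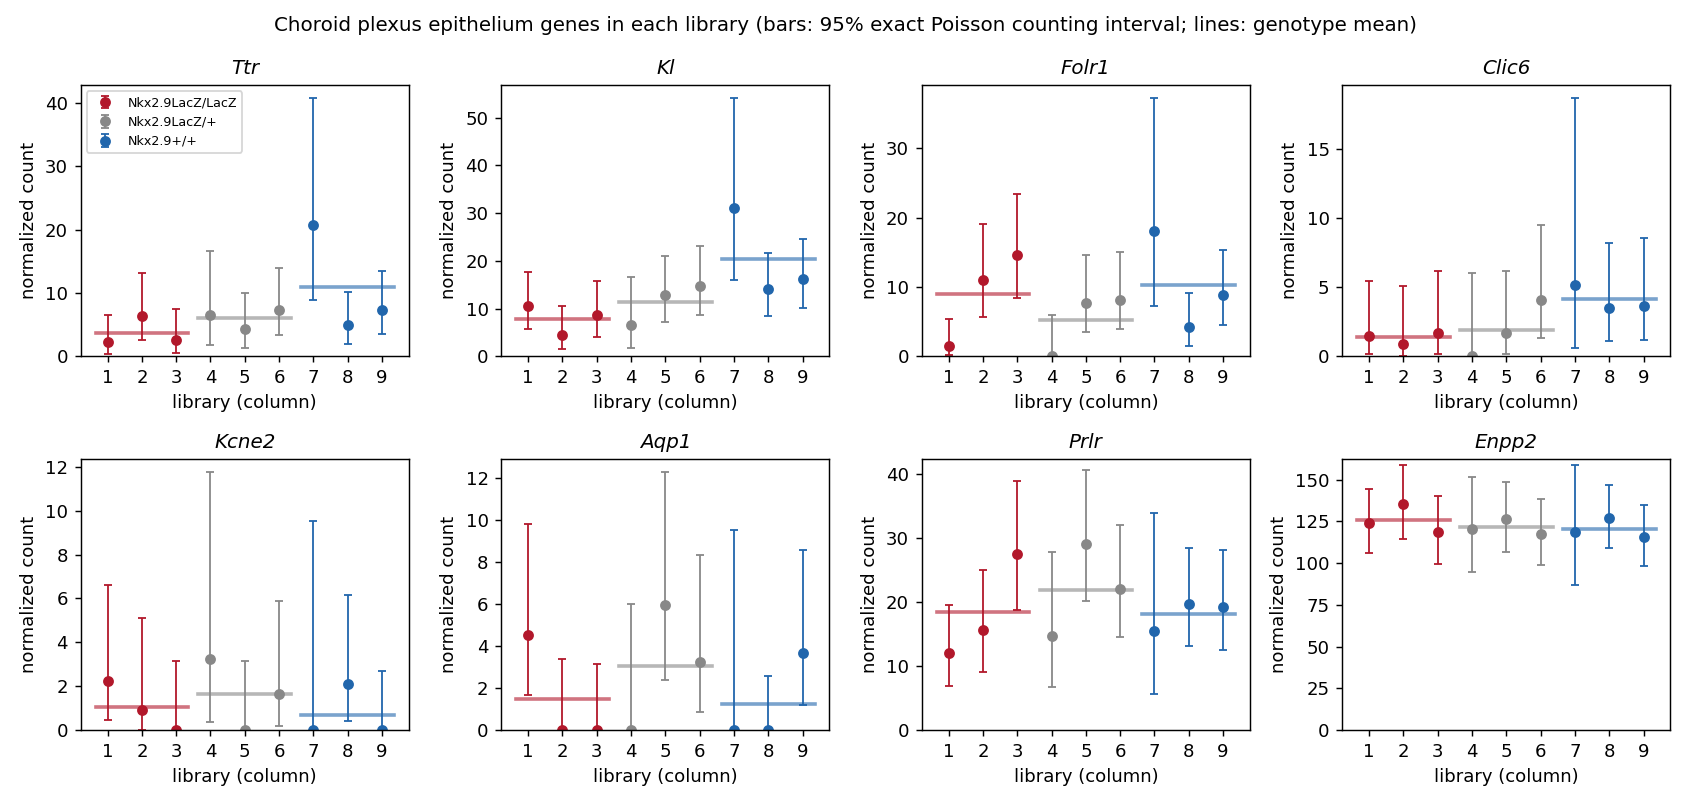
Normalized count of each of the 8 genes (y axis, from 0) in the libraries of columns 1 to 9 (x axis), coloured by genotype; error bars are 95% exact Poisson intervals of the read count and horizontal lines are genotype means (n = 3). *Enpp2* stays within 116 to 135, *Kl* separates Nkx2.9LacZ/LacZ from Nkx2.9+/+, and column 7 is the highest library for *Ttr*, *Kl*, *Folr1* and *Clic6*.

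To determine whether the 8 genes differed between genotypes, log2(normalized count + 1) was fitted with limma across all genes. Of the 8, *Kl* alone passed an unadjusted p of 0.05, in Nkx2.9LacZ/LacZ against Nkx2.9+/+, and none of the 8 passed after Benjamini-Hochberg adjustment in any comparison. *Kl* was at 7.90 ± 3.04 (SD, n = 3) in the libraries labelled Nkx2.9LacZ/LacZ and at 20.4 ± 9.25 in those labelled Nkx2.9+/+. The log2 fold change was -1.25 (SE 0.48, 95% interval -2.26 to -0.23), with an unadjusted limma p of 0.0191, an adjusted p of 1.00 and an exact permutation p of 0.1. That is the smallest value that a permutation of 3 libraries against 3 allows. Without column 7 the log2 fold change of *Kl* was -0.92, and without column 2, the lowest of the Nkx2.9LacZ/LacZ libraries, it was -0.94, and in neither case did the unadjusted limma p pass 0.05. Summed over libraries, *Kl* had 29 reads in Nkx2.9LacZ/LacZ, or 1.92 RPM (95% exact Poisson interval 1.29 to 2.76), and 54 reads in Nkx2.9+/+, or 4.02 RPM (3.02 to 5.24), intervals that cover counting error only. In bulk tissue, fewer cells of a type and less RNA per cell cannot be told apart.

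Over all 16993 genes whose mean reached 5 normalized counts, 2.60% had an unadjusted limma p under 0.05 in the same comparison and 0% an adjusted one. *Kl* was 1 of the 5 members above that minimum (*Ttr*, *Kl*, *Folr1*, *Prlr* and *Enpp2*). The remaining 3, *Clic6*, *Kcne2* and *Aqp1*, were read from the same fit over all 31636 genes above 0, where the share of all genes was 3.59% and 0 of the 3 passed. The groups did not overlap for 2 of the 8 genes, *Kl* and *Clic6*, both lower in the libraries labelled Nkx2.9LacZ/LacZ, against 7.53% of all genes above 0 in either direction. With 8 genes, 1 or 2 so called is too few to set against these shares. On recovered reads, edgeR and DESeq2 also called 0 of the 8 after adjustment. Both called 0 of the 16993 genes, and over the 31636 genes edgeR called 36 and DESeq2 0.

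The remaining genes did not pass the test between Nkx2.9LacZ/LacZ and Nkx2.9+/+. *Ttr* was at 3.746 ± 2.31 against 10.99 ± 8.49, a log2 fold change of -1.21 (SE 0.63, 95% interval -2.56 to 0.14), with an exact permutation p of 0.2 and a limma p of 0.0748 before adjustment. Without column 7 it was -0.67. *Clic6* had a log2 fold change of -1.11 (95% interval -2.63 to 0.41), with an exact permutation p of 0.1 and a limma p of 0.145 before adjustment. For *Folr1*, *Kcne2*, *Aqp1* and *Prlr* the log2 fold changes were -0.35, 0.34, 0.08 and -0.05, and the intervals of the first 3 spanned over 2 log2 units, so that large differences either way were within their error. *Enpp2* was the most tightly bounded, at 0.06 (95% interval -0.26 to 0.38). The median log2 fold change of the 8 genes was -0.20, and that of all genes above 0 was 0.02.

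**Figure D3:**
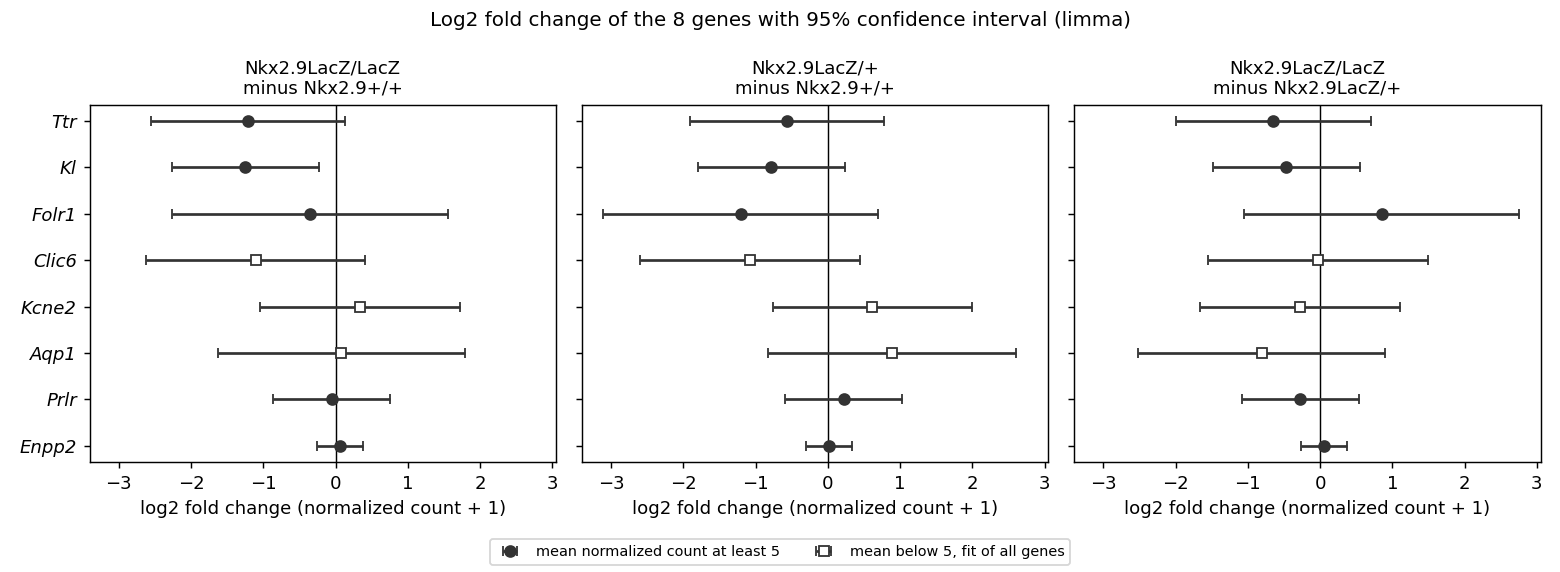
Log2 fold change of normalized count + 1 (x axis) of the 8 genes (y axis) in the 3 comparisons of genotypes, with 95% confidence intervals from limma (n = 3 libraries per genotype); filled circles are genes with a mean of at least 5 and open squares those below. The interval of *Kl* in Nkx2.9LacZ/LacZ minus Nkx2.9+/+ (-2.26 to -0.23) is alone in leaving out 0, and the *Enpp2* intervals are the narrowest.

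The heterozygotes were compared with each of the other genotypes, and these comparisons share libraries with the first. Between Nkx2.9LacZ/+ and Nkx2.9+/+, limma gave 0 of 8 genes an unadjusted p under 0.05, where the shares of all genes were 2.78% over the minimum and 3.59% above 0, with 0% after adjustment. The groups overlapped for all 8, against 5.65% of genes that did not overlap. *Kl* had a log2 fold change of -0.78 (95% interval -1.80 to 0.23), *Ttr* of -0.57 (-1.91 to 0.78) and *Enpp2* of 0.01 (-0.31 to 0.33). Those of *Folr1*, *Clic6*, *Aqp1*, *Kcne2* and *Prlr* were -1.21, -1.08, 0.89, 0.62 and 0.22, with intervals that held 0. Of the 8 genes, 4 were lower and 4 higher. Between Nkx2.9LacZ/LacZ and Nkx2.9LacZ/+, limma again gave 0 of 8 an unadjusted p under 0.05 (2.64% and 3.58% of all genes, 0% after adjustment), and 0 of 8 did not overlap (7.02% of all genes). Here *Kl* was at -0.47 (95% interval -1.48 to 0.55), *Ttr* at -0.65 (-1.99 to 0.70) and *Enpp2* at 0.05 (-0.27 to 0.37). *Folr1*, *Clic6*, *Aqp1*, *Kcne2* and *Prlr* were at 0.85, -0.03, -0.81, -0.28 and -0.27, again with intervals that held 0. The mean of *Kl* was 7.90, 11.3 and 20.4 in the order Nkx2.9LacZ/LacZ, Nkx2.9LacZ/+ and Nkx2.9+/+, with neighbouring genotypes overlapping.

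Genes that work with these 8 were read beside them, and few passed an unadjusted test. For *Ttr*, 6 of 8 genes of thyroid hormone and retinol handling were over the minimum, led by the receptor gene *Thra*, while the retinol carrier *Rbp4* had 0 to 8 reads. Of these, *Slco1c1*, a thyroxine transporter gene, was at 42.5 ± 3.02 in Nkx2.9LacZ/+ and 65.4 ± 15.0 in Nkx2.9+/+ (log2 fold change -0.59, unadjusted limma p = 0.0352, adjusted p = 1.00, exact permutation p = 0.1). For *Kl*, the receptor gene *Fgfr1* had a mean of 371, and its ligand *Fgf23* had 0 to 10 reads. For *Folr1*, the folate transporter genes *Slc46a1* and *Slc19a1* had means of 89.1 and 79.8.

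Among the genes that accompany the channels and receptors, *Kcnq1*, the partner of *Kcne2*, had a mean of 6.50, and *Aqp4*, the water channel gene of astrocytes, had a mean of 7.10. The sodium pump subunit gene *Atp1b1* had a mean of 491. In the family of *Clic6*, *Clic4* was highest at 334, and *Clic1* was at 63.5 ± 11.1 in Nkx2.9LacZ/+ and 42.0 ± 14.2 in Nkx2.9+/+ (log2 fold change 0.62, unadjusted limma p = 0.0292, adjusted p = 1.00, exact permutation p = 0.2). *Prl*, the ligand gene of *Prlr*, and *Gh*, the growth hormone gene, had 0 reads in all 9 libraries, while the signalling genes *Jak2*, *Stat5b* and *Socs2* had means of 505, 177 and 217. For *Enpp2*, 6 of 8 genes for lysophosphatidic acid receptors and phosphatases were over the minimum, with *Plpp3* at a mean of 270 and *Lpar2* at 79.5. In Nkx2.9LacZ/LacZ against Nkx2.9+/+, none of these partner genes over the minimum had an unadjusted limma p under 0.05, and none of the 13 further choroid plexus genes did.

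The genes that act upstream of the epithelium were read in the same way. *Otx2* was at 205 to 329 normalized counts in every library and *Lmx1a*, a roof plate and midbrain homeobox gene, at 69.2 to 138, and both are also genes of the midbrain. *Gmnc* and *Mcidas*, which set up multiciliated cells, had 4 and 7 reads in all. The hem and roof plate, signalling centres beside which the choroid plexus forms, were read by 7 genes, of which 3 were over the minimum. *Wnt2b* and *Rspo2* had means of 32.7 and 19.5, and *Wnt3a* had 0 reads. *Wnt8b*, a Wnt ligand gene also used in the midbrain, was at 20.01 ± 9.43, 17.1 ± 7.35 and 5.02 ± 3.48 in the libraries labelled Nkx2.9LacZ/LacZ, Nkx2.9LacZ/+ and Nkx2.9+/+. Its log2 fold change against Nkx2.9+/+ was 1.92 in Nkx2.9LacZ/LacZ (unadjusted limma p = 0.00312, exact permutation p = 0.1) and 1.70 in Nkx2.9LacZ/+ (0.00698, exact permutation p = 0.1), with adjusted p = 1.00 in both. Of 4 motile cilia genes over the minimum, *Foxj1*, the transcription factor gene of motile cilia, was at 61.1 ± 9.16, 56.0 ± 17.6 and 81.4 ± 2.21 in Nkx2.9LacZ/LacZ, Nkx2.9LacZ/+ and Nkx2.9+/+. Its difference between Nkx2.9LacZ/+ and Nkx2.9+/+ had a log2 fold change of -0.58 (unadjusted limma p = 0.0291, adjusted p = 1.00, exact permutation p = 0.1).

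Genes of other tissues near or outside the brain varied between libraries as well. The liver and yolk sac, which also express *Ttr*, were read by 7 genes, of which 4 were over the minimum, with *Apoa4* at 0. Their summed level was 39.1 to 107 in Nkx2.9LacZ/LacZ, 60.3 to 162 in Nkx2.9LacZ/+ and 78.6 to 191 in Nkx2.9+/+. *Alb*, the albumin gene, was at 25.6, 71.3 and 45.5 in Nkx2.9LacZ/LacZ, at 47.3, 59.8 and 111 in Nkx2.9LacZ/+ and at 153, 51.2 and 63.3 in Nkx2.9+/+. Its highest library was column 7 and its lowest column 1, as for *Ttr*. Of the other genes of the list over the minimum, *Fgb* was also highest in column 7, at 15.5, but lowest in column 4. *Afp* was highest in column 6, at 22.8, with column 7 next at 20.7, and lowest in column 4, and *Apoa1* was highest in column 6 and at 0 in column 7. The part of such tissue in the *Ttr* values was not tested.

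The meninges were read by 9 genes, 6 over the minimum, with a summed level of 377 to 524 in Nkx2.9LacZ/LacZ, 386 to 411 in Nkx2.9LacZ/+ and 458 to 547 in Nkx2.9+/+. *Aldh1a2* had 1 read in all and *Lum* 0 to 3 reads in a library. *Foxc1*, a transcription factor gene of the meninges that was singled out after its values were seen, was at 12.1 ± 1.33 in Nkx2.9LacZ/LacZ and 24.9 ± 1.20 in Nkx2.9+/+ (log2 fold change -0.99, unadjusted limma p = 0.00677, adjusted p = 1.00, exact permutation p = 0.1), so it was lower in the same libraries as *Kl*. *Foxc1* alone of the meningeal genes over the minimum passed that test unadjusted, and their median log2 fold change was -0.20. *Col1a1*, *Col1a2* and *Col3a1* were highest in column 9, at 87.6, 89.1 and 131.8, and *Igf2* in column 7, at 282. *Dcn* was highest in column 4, at 17.9, and at 0 in column 7. *Col1a1* passed between Nkx2.9LacZ/+ and Nkx2.9+/+ (log2 fold change -0.77, unadjusted limma p = 0.00766, exact permutation p = 0.1). Whether meningeal tissue had a part in the *Kl* values was not tested. The pigment epithelium of the eye, which also expresses *Ttr*, had a summed level of 0 to 8.15 over 6 genes. The summed level was 802 to 937 for 7 endothelial genes and 1499 to 2273 for 10 blood genes.

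**Figure D4:**
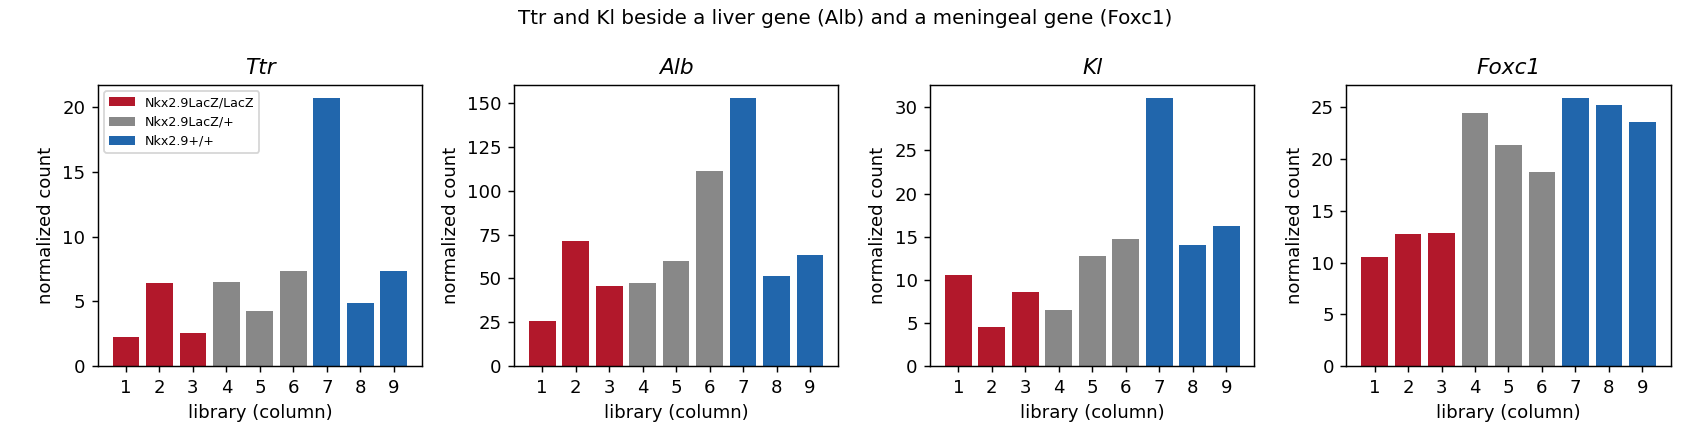
Normalized counts (y axes, from 0) of *Ttr*, *Alb*, *Kl* and *Foxc1* in the libraries of columns 1 to 9 (x axes), coloured by genotype, 1 bar per library. Column 7 is the highest library for all 4 genes; *Foxc1* is at 10.5 to 12.9 in Nkx2.9LacZ/LacZ and at 23.6 to 25.9 in Nkx2.9+/+.

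The genes whose levels followed *Ttr* most closely were sought among 12467 genes with a mean of at least 20, by Pearson's r of log2(normalized count + 1) over the 9 libraries. The highest were *Bean1* (r = 0.94, Spearman's rho 0.85), *Kcnip3* (0.94, 0.93), *Tmppe* (0.93, 0.73), *P4ha2* (0.93, 0.80) and *Klf16* (0.92, 0.90). Without columns 1 and 7, which hold the extreme *Ttr* values, r was 0.68 to 0.86. For the mean log2 level of the 8 genes, the closest were *B3galnt2* (r = 0.94, rho 0.85), *1810037I17Rik* (0.94, 0.93), *Dr1* (0.93, 0.92), *Fam167a* (0.92, 0.93) and *Chrac1* (0.91, 0.92). The points share the depth of each library, *Ttr* rests on 3 to 10 reads a library, and the genes were picked as the best of 12467 over 9 points, so these are descriptions. The search left out the 8 genes themselves and every gene with a mean below 20, such as *Kcnj13*, *Tmem72*, *Cldn2* and *Sostdc1*. None of the 10 is a choroid plexus marker of the lists used here, which for such low genes was set by that minimum.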

How the data were processed

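RNA of E14.5 midbrains was depleted of ribosomal RNA and sequenced in paired ends. The authors mapped reads with Hisat2 to GRCm38/mm10, counted them with featureCounts and normalized them with DESeq2; tool versions, annotation and strand setting are not given in the sources used here. The deposited signal values are counts per gene divided by a size factor. Of 210686 values above 0, 100% came out as whole reads (tolerance 0.01 read). The authors' own comparisons (fold changes and p-values) were deposited too and were not used. GEO's series title speaks of cortex and its sample labels of midbrain; the labels were followed.

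The members and gene lists were chosen with earlier results of these data known. Genes were named by rule: the 8 members, *Nkx2.9*, and from each list at most the 3 genes of highest mean. Choroid plexus or partner genes with an unadjusted p under 0.05 were also named. So were the 5 genes closest to *Ttr* and the 5 closest to the members' mean. Genes with few or no reads, and *Foxc1*, *Col1a1*, *Dcn*, *Tph2*, *En1*, *Pax7*, *Aqp4*, *Gmnc* and *Mcidas*, were named after their values were seen. Limma 3.58.1 (R 4.3.3) was fitted to log2(normalized count + 1) of the 9 libraries together with a mean-variance trend, on 16993 genes with a mean of at least 5. Fold changes on this scale understate changes of low genes. Tests were two-sided and adjusted by the Benjamini-Hochberg method; exact permutation tests compared 3 with 3 libraries. Alternatives were pseudocounts of 0.5 and 5, no minimum or one of 20, other scalings, only the compared genotypes, edgeR 4.0.16 and DESeq2 1.42.0 on recovered reads, and each library left out. Scripts were tested on simulated data. The methods name a single litter or a pair of litters for experiments in general and give no litter for each library, so 3 libraries of a genotype may share litters and p-values measure the spread between these libraries. Positions are from GENCODE M21 (GRCm38) and promoter sequences from RefSeq (GRCm38.p6). Promoters of the other 4 members, and proteins, were not used here. Some genes of the lists are not reported here.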

Additional observations from a re-analysis of the deposited data

How the results depend on the processing

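No paired analysis was possible because the columns carry genotypes but no replicate numbers. After adjustment, 0 of the 8 genes were called under every alternative run. In Nkx2.9LacZ/LacZ against Nkx2.9+/+, the 1 gene with an unadjusted p under 0.05 (*Kl*) became 0 with a minimum mean of 20, where only *Enpp2* was tested, and 0 without columns 4 and 7, the shallowest libraries (chosen after seeing the data; *Kl* then at -0.92). It became 2 with only the compared genotypes (*Clic6* added) and 2 with quantile normalization or without the mean-variance trend (*Ttr* added both times, at -1.44 and -1.21). Leaving out each library gave 0 (without column 7) to 2 (without column 8, *Ttr* added); without column 2, *Ttr* passed in place of *Kl*. The cause was not tested.

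Several log2 fold changes changed sign, also some far from 0 (*Folr1* between Nkx2.9LacZ/+ and Nkx2.9+/+ was at -1.21). Between Nkx2.9LacZ/LacZ and Nkx2.9+/+, leaving out each library gave *Folr1* -0.86 to 0.46, *Kcne2* -0.076 to 0.88, *Aqp1* -0.74 to 0.82 and *Prlr* -0.37 to 0.19; edgeR gave *Folr1* 0.024. Between Nkx2.9LacZ/+ and Nkx2.9+/+ it gave *Prlr* -0.0011 to 0.47 and *Enpp2* -0.017 to 0.050. Between Nkx2.9LacZ/LacZ and Nkx2.9LacZ/+ it gave *Folr1* -0.20 to 1.67, *Clic6* -0.66 to 0.52, *Kcne2* -0.86 to 0.18 and *Enpp2* -0.0012 to 0.094; a pseudocount of 0.5 gave *Clic6* 0.11. Without columns 4 and 7, *Folr1* was at 0.12, 0.32 and -0.20 in the 3 comparisons in this order, *Aqp1* at -0.29 in the first, and *Kcne2* at -0.12 in the second and 0.18 in the third. For *Kl*, leaving out each library gave -1.47 to -0.92 in the first comparison, always below 0.

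Depth limits these genes: 7 of the 8 rest on at most 34 reads in any library.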
